A study of Danio rerio with 6 samples.

Results

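Isolated Eomesa peaks are regions called as bound by Eomesa in the zebrafish blastula that had no other called region within 250 kb. Eomesa signal that was not called lay near most of them, as described below. They were chosen by the measured distance between called intervals, as those intervals of the Eomesa peak list on chromosomes 1 to 25 whose nearest other interval, of either the Eomesa or the Smad2 list, lay more than 250 kb away from edge to edge. By this rule 492 of 6215 Eomesa peaks on these chromosomes were isolated (7.92%, 95% Wilson interval 7.27 to 8.61), of 6378 Eomesa peaks in all. Distances are therefore given as a description. Because the rule also kept Smad2 intervals away, a low Smad2 signal at the members is in part fixed by it.

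ChIP-seq, the sequencing of DNA that an antibody pulls down from fixed chromatin, was applied to wild-type high-sphere stage embryos of the AB strain, with 2 reactions for each of Eomesa, Smad2 and input (whole chromatin, not immunoprecipitated). The Eomesa antibody was polyclonal and raised against the whole zebrafish protein, and the Smad2 antibody was a rabbit monoclonal. The data held 1 list of regions per factor, each made of peaks found in both reactions, and 1 coverage track for each of the 3 groups. With a single track per group there was no error between replicates, and no difference below was tested across samples.

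Eomesa is a T-box transcription factor related to mammalian Eomesodermin, and in zebrafish it acts in the formation of endoderm and mesoderm, being supplied to the egg as maternal mRNA. Smad2 is the intracellular effector of Nodal, the secreted signal that induces mesoderm and endoderm. On stimulation Smad2 enters the nucleus and is brought to DNA by partner factors such as Foxh1, a forkhead protein, and Eomesodermin. Bound regions often lie in groups round the genes that these factors control, so a called region far from any other called region is the opposite case.

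The match to the Foxh1 motif that the study listed for a peak is shown here for some isolated peaks. These are the tallest of those that were readable and had a match holding the core described below. A listed match is the one stretch of bound DNA that could be read for them. The isolated peaks tallest of all, described further below, are not among them. The readable portion of the study's list of Eomesa peaks held 163 of the 492 isolated peaks, and a Foxh1 match was listed for 32 of them. That portion ran over chromosomes 1 and 10 to 16 and part of 17 only. Of these 32 matches, 23 (71.9%, 95% Wilson interval 54.6 to 84.4) held the core AATNNACA of a forkhead-type site, beside 282 of 460 matches at other readable Eomesa peaks (61.3%), searched in the orientation in which the list writes its letters. Of the readable isolated peaks with a match that held the core, the 10 tallest are given below, with the core in capitals. They are letters of the list, since the strand and the place within the peak were not given.
Eomesa_peak1933 (chr17:17293914-17294306): gttAATCCACA
Eomesa_peak92 (chr1:20570074-20570558): gctAATAAACA
Eomesa_peak517 (chr11:4980859-4981501): gtcAATTCACA
Eomesa_peak1406 (chr14:53015107-53016194): agaAATACACA
Eomesa_peak1685 (chr16:15495580-15495899): tatAATAAACA
Eomesa_peak561 (chr11:13932984-13933953): agcAATCAACA
Eomesa_peak93 (chr1:21604779-21605150): tatAATAAACA
Eomesa_peak256 (chr1:59463754-59464243): aacAATACACA
Eomesa_peak1250 (chr14:16772340-16772922): caaAATCCACA
Eomesa_peak294 (chr10:10066744-10067081): ttcAATGCACA

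These coordinates are in the Zv9 build. The same 11 letters were listed for Eomesa_peak93 and Eomesa_peak1685, which lie on different chromosomes. The AATCCACA form of the core stood in Eomesa_peak1933 and Eomesa_peak1250, and AATACACA in Eomesa_peak1406 and Eomesa_peak256. Among all other readable Eomesa peaks a match was listed for 460 of 1835 (25.1%), beside 19.6% of the isolated ones (95% Wilson interval 14.3 to 26.4). The share was higher among wider peaks in both sets. Among peaks under 250 bp it was 10.3% of 78 isolated peaks and 11.6% of 799 others, and among wider ones 28.2% of 85 and 35.4% of 1036. A listed match is a description of letters and not evidence of Foxh1 at the peak.

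Isolated peaks had the height and the width of an ordinary Eomesa peak. Height is the highest value of a track inside the interval, in tags, that is, the number of sequenced fragments piled up at one position. At isolated peaks the Eomesa height ran from 1 to 78 tags with a median of 15 (quartiles 10 and 22), and over all Eomesa peaks on these chromosomes the median was 14 (quartiles 9 and 22). The order-statistics interval of the isolated median, which covers the sampling of sites only, was 14 to 16 tags. On the scale of log2(height + 1) the median of isolated peaks lay 0.09 above that of the other Eomesa peaks, and with a limit of 500 kb in place of 250 kb this difference was -0.10. Heights of 40 tags or more were reached by 30 isolated peaks (6.10%), against 6.73% of all Eomesa peaks. The median width was 253 bp at isolated peaks (quartiles 157 and 371, range 2 to 1681) and 268 bp over all.

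Isolated peaks held a share of the Eomesa tags close to their share of the list. Together they spanned 141 kb and held 41830 tags, which was 8.12% of the tags within Eomesa peaks and 0.339% of the whole track. The same bases held 0.0423% of the Smad2 tags and 0.0311% of the input tags.

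To compare tracks of different depth, the mean signal in an interval was divided by the mean of its track over the genome and is called a multiple. The tags of the Eomesa track were 38.9 bp long and those of the Smad2 and input tracks 132 bp, so raw heights are compared only within a track. The division does not correct for tag length. Eomesa multiples and Eomesa folds are thus not on one scale with those of Smad2. The tracks held about 12.3 M, 12.6 M and 19 M tags for Eomesa, Smad2 and input. At isolated peaks the median multiple was 21.3 for Eomesa, 3.37 for Smad2 and 2.43 for input. Over all Eomesa peaks these medians were 20.3, 3.62 and 2.36. Input was thus itself above its genome-wide mean at these sites, and the Smad2 signal was close to it.

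Dividing an antibody's multiple by that of input, after adding 0.1 to each, gave the fold over input. The Eomesa fold at isolated peaks had a median of 9.08 (order-statistics interval 8.18 to 9.62, quartiles 5.42 and 15.6), beside 8.79 over all Eomesa peaks. It was at least 4 at 432 isolated peaks (87.8%), where the share over all Eomesa peaks was 87.0%. The isolated peaks were therefore enriched over input about as often as the list they came from. The other 60 isolated peaks fell below a fold of 4. Peaks had been called from Eomesa reads against input, so a high Eomesa fold is in part fixed by the calling. It is no separate support for the label of an Eomesa peak.

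The averaged tracks had the same form at isolated peaks as at the 5370 other Eomesa peaks that shared no base with a Smad2 peak, called other lone peaks here. Averaged round the centres of isolated peaks, the Eomesa track reached 32.9 times its genome-wide mean, and its width midway between the edges and the top was 310 bp. At other lone peaks it reached 31.4 with a width of 315 bp. The tops of the Smad2 track were 4.58 and 4.61, and those of the input track 3.18 and 3.10. Between 1500 and 2000 bp from the centre the Eomesa track lay at 1.22 at isolated peaks and 1.67 at other lone peaks, the Smad2 track at 0.987 and 1.21, and the input track at 0.972 and 1.11. All 3 tracks were thus lower at this distance from isolated peaks, and other lone peaks can have called neighbours there.

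**Figure D1:**
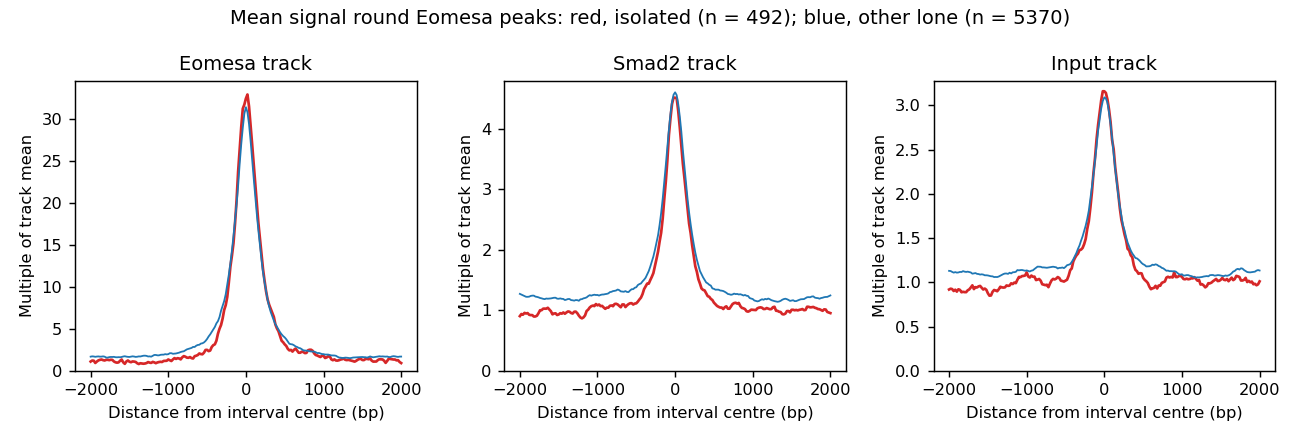
Mean signal of the Eomesa, Smad2 and input tracks within 2000 bp of the centre of isolated Eomesa peaks (red, n = 492) and of other lone Eomesa peaks (blue, n = 5370), on the y axis in multiples of each track's mean. The Eomesa curves rise to 32.9 and 31.4, the Smad2 curves to 4.58 and 4.61 and the input curves to 3.18 and 3.10.

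Smad2 lay near input at most isolated peaks. The Smad2 fold over input had a median of 1.25 (order-statistics interval 1.18 to 1.38, quartiles 0.848 and 2.14), beside 1.49 over all Eomesa peaks and 1.44 at other lone peaks. It was at least 2 at 142 isolated peaks (28.9%, 95% Wilson interval 25 to 33.0), where the share over all Eomesa peaks was 34.0% and that of other lone peaks 30.4%. Of the isolated peaks, 168 lay below input (34.1%, 95% Wilson interval 30.1 to 38.4), beside 28.4% of all Eomesa peaks and 29.8% of other lone peaks. The lone peaks are the closer comparison here, since the rule removes every peak that touches Smad2. It also removes every peak with a Smad2 interval within 250 kb. Other lone peaks can have one nearer, with a lower quartile of 187 kb for that distance. The difference from them is thus also in part fixed by the rule. The Wilson and order-statistics intervals treat peaks of 1 track as independent and cover the sampling of sites only. They are no test of isolated against other lone peaks.

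A smaller group of isolated peaks reached Smad2 heights usual for called Smad2 peaks. The median height of the 880 Smad2 peaks on these chromosomes was 16.5 tags, and 32 isolated peaks (6.50%) had at least that Smad2 height, where the share over all Eomesa peaks was 10.6%. At other lone peaks it was 6.67%. Among these 32 the Smad2 fold over input was at least 2 in 19, and the matching count at other Eomesa peaks was not made. None of them was part of a Smad2 peak in the list, which holds only regions found in both reactions.

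**Figure D2:**
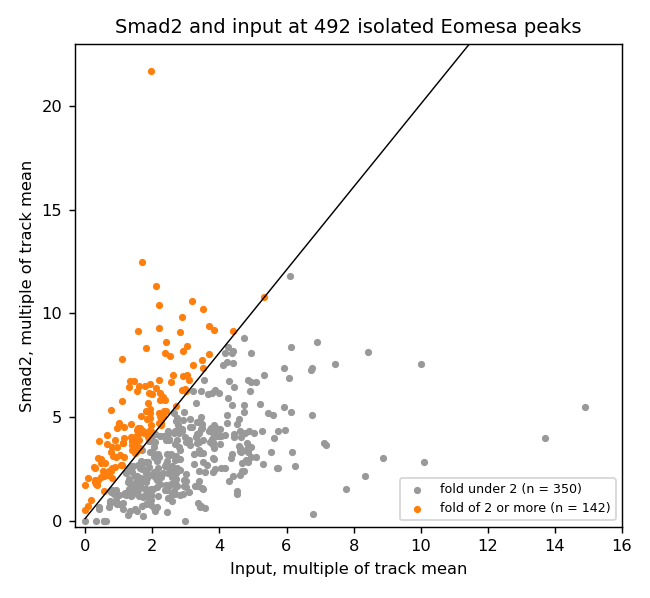
Each of the 492 isolated Eomesa peaks by its input signal (x axis) and its Smad2 signal (y axis), both in multiples of the track's mean, with the line marking a Smad2 fold over input of 2. The 142 orange points lie on or above the line, and the highest of them is Eomesa_peak4926 with a Smad2 multiple of 21.7.

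The tallest 8 isolated peaks were wide, and most of them stood above every other Eomesa value within 250 kb. They were picked for height, and the rule keeps called intervals out of their flanks, so this is in part fixed. Eomesa_peak248 (chr1:54020422-54021567, 1145 bp) reached 78 tags of Eomesa, 26 of Smad2 and 11 of input, and 78 is the highest value anywhere in the Eomesa track. Eomesa_peak5684 (chr8:5720156-5720785) reached 73 tags of Eomesa, 32 of Smad2 and 12 of input. Eomesa_peak2124 (chr18:1427693-1428455) reached 69 of Eomesa, 5 of Smad2 and 10 of input. These lead the list in Eomesa height, and the first was the only isolated peak at that highest value. Whether values are capped there is not given in the sources used here.

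Eomesa_peak2746 (chr2:34820556-34821198) reached 67 tags of Eomesa, 22 of Smad2 and 18 of input. For Eomesa_peak4951 (chr5:59356636-59357322) the heights were 66, 29 and 12 tags in the same order. For Eomesa_peak2638 (chr2:11547911-11548797) they were 65, 17 and 21. All 3 lay between 273 and 363 kb from the nearest interval, an Eomesa peak in each case.

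Eomesa_peak6121 (chr9:38559226-38559828) had heights of 64 tags for Eomesa, 17 for Smad2 and 6 for input. Eomesa_peak4725 (chr5:11377922-11378378) had 62, 4 and 10, and its nearest interval was a Smad2 peak 261 kb away. The 8 were chosen for their Eomesa height, and their Smad2 heights ran from 4 to 32 tags.

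In fold over input, Smad2 was highest among the 8 at Eomesa_peak6121 with 4.67 and Eomesa_peak248 with 4.06. It was 3.31 at Eomesa_peak4951, 2.86 at Eomesa_peak5684, 1.92 at Eomesa_peak2638 and 1.31 at Eomesa_peak2746. It was below input at Eomesa_peak2124, with 0.680, and at Eomesa_peak4725, with 0.524. The Eomesa fold of the 8 ran from 17.1 at Eomesa_peak2746 to 68.4 at Eomesa_peak6121. The tags counted in them were 396 at the least, at Eomesa_peak4951 (exact Poisson interval 358 to 437), and 1481 at the most, at Eomesa_peak248 (1407 to 1558). These intervals cover counting error only.

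For 7 of the 8 the highest Eomesa value in the 250 kb on each side was far lower. It lay between 18 tags at Eomesa_peak6121 and 34 tags at Eomesa_peak5684 and Eomesa_peak2638. The choice by height and the rule in part fix this contrast, and equally tall other peaks were not compared. The exception was Eomesa_peak2124, where a stretch outside any called interval also reached 69 tags, and the input track held 25 tags there. The gene that the study placed within 10 kb of Eomesa_peak248 was zgc:66455. For the other 7 the annotation was not read here.

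Height did not follow the distance to the nearest interval. Spearman's rho between Eomesa height and the distance to the nearest interval was -0.03 over the 492 isolated peaks, and -0.02 over the 5723 others. Height went with width, with a rho of 0.72 at isolated peaks and 0.68 at others. Eomesa height went with input height with a rho of 0.41 at isolated peaks and 0.42 at others. For Eomesa height and Smad2 height the rho was 0.32 at isolated peaks and 0.44 at others, where the peaks shared with Smad2 are included. All points in these correlations come from the same tracks, and wider intervals have more positions at which to reach a high value in each.

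Over lone Eomesa peaks the median Eomesa height did not follow distance in one direction. It was 13 tags where the nearest interval lay within 10 kb, 15 from 10 to 50 kb, 14 from 50 to 100 kb and 13 from 100 to 250 kb. Among isolated peaks it was 16 tags from 250 to 500 kb (n = 408, order-statistics interval 15 to 17) and 13 tags beyond 500 kb (n = 84, 12 to 16). The farther class was not taller than lone peaks with a neighbour close by.

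The Smad2 fold was highest in the class with the nearest neighbours. The nearest interval can be a Smad2 peak, and only this class can hold peaks within 10 kb of one. Its higher value is thus in part fixed by how the classes were made. Its median was 1.54 within 10 kb, 1.44 from 10 to 50 kb, 1.30 from 50 to 100 kb and 1.39 from 100 to 250 kb. For isolated peaks it was 1.27 from 250 to 500 kb and 1.17 beyond 500 kb, with an order-statistics interval of 1.0 to 1.47 for the last. The share with a Smad2 fold of at least 2 was 34.4% in the nearest class and from 25.3% to 29.7% in the 5 others. From 50 kb outward the intervals of neighbouring classes overlap.

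**Figure D3:**
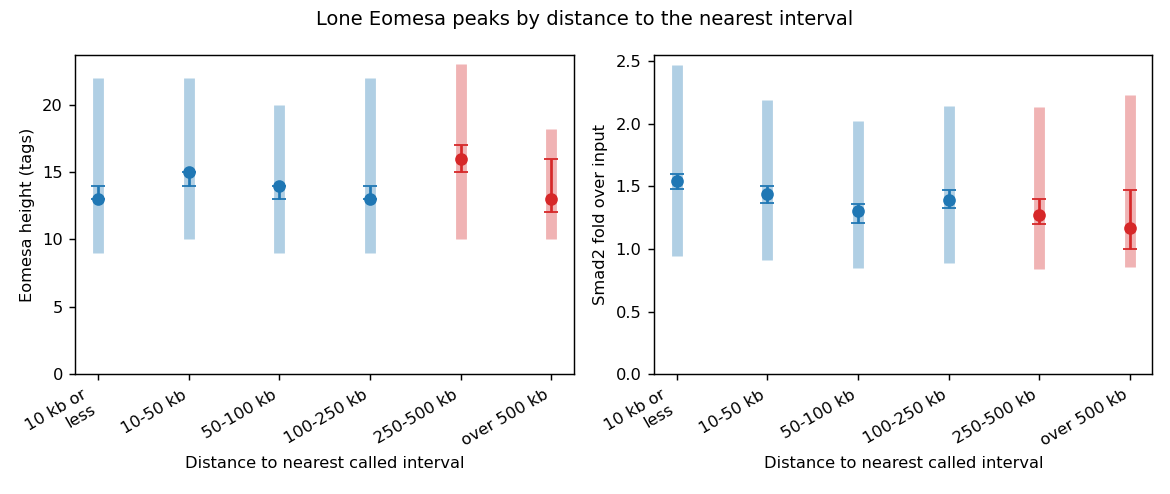
Median Eomesa height in tags (left) and median Smad2 fold over input (right) of lone Eomesa peaks in 6 classes of distance to the nearest called interval, with isolated peaks in red, thick bars from the lower to the upper quartile and thin bars for the order-statistics interval of the median. The median height lies between 13 and 16 tags in every class, and the median Smad2 fold lies at 1.54 in the nearest class and 1.17 in the farthest.

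Width separated isolated peaks more than distance did. The 63 members under 100 bp had a median Eomesa height of 6 tags and a median Eomesa fold of 6.13. The 175 members from 100 to under 250 bp had 11 tags and 7.15, and the 198 from 250 to under 500 bp had 19 tags and 10.3. The 56 members of 500 bp or more had 34 tags and 12.7. Heights were read inside the interval only, and the part of narrow intervals that miss a summit in this trend was not tested. Other Eomesa peaks of 500 bp or more, 614 in number, had a like height of 32 tags and an Eomesa fold of 13.2. Their median Smad2 fold was 1.83 and that of the wide isolated peaks 1.28 (order-statistics interval 1.02 to 1.79), and the wide others include peaks shared with Smad2.

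The nearest interval lay between 250 and 1265 kb from an isolated peak, with a median of 356 kb (quartiles 289 and 441). For 84 members it lay beyond 500 kb and for 7 beyond 1000 kb. It was a Smad2 peak for 42 members (8.54%) and an Eomesa peak for the rest. The nearest Smad2 peak was a median of 1061 kb away, against 550 kb over all Eomesa peaks and 567 kb at other lone peaks. The rule leaves out every peak with a Smad2 interval within 250 kb, so this difference is in part fixed by it. For the 479 members with an interval on both sides, the stretch without any other called interval had a median length of 981 kb, while 13 members had none on one side of the chromosome.

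The 5 most remote isolated peaks were of modest height with a single exception. Eomesa_peak4722 (chr5:9105379-9105542), 1265 kb from its neighbour, reached 19 tags of Eomesa, 3 of Smad2 and 10 of input. Eomesa_peak141 (chr1:32823625-32823842), at 1165 kb, reached 10, 7 and 10 tags in that order. Eomesa_peak1145 (chr13:42398099-42398489), at 1099 kb, reached 13, 10 and 4 tags. None of these 3 was the highest point of its surroundings.

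Eomesa_peak142 (chr1:33988448-33988934), at 1097 kb, was the exception, with 39 tags of Eomesa, 11 of Smad2 and 14 of input, and the highest other Eomesa value within 250 kb was 30 tags. Eomesa_peak3486 (chr22:29170515-29170585), at 1062 kb, was 70 bp wide and reached 17 tags of Eomesa, 3 of Smad2 and 1 of input. Only 18.7% of the bases round it carried any input signal. Its folds of 183 for Eomesa and 12.2 for Smad2 rest on that single input tag. Eomesa_peak141 and Eomesa_peak142 follow each other on chromosome 1.

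The members nearest to the limit on each side are given once, as a description. Just inside it lay Eomesa_peak2837, at 250053 bp, with 27 tags of Eomesa, 6 of Smad2 and 16 of input, and Eomesa_peak2405, at 250541 bp, with 20, 9 and 17. Their Eomesa folds were 7.33 and 5.43 and their Smad2 folds 0.525 and 0.885. Just outside it lay Eomesa_peak133, at 249228 bp, with 19, 8 and 3 tags, and Eomesa_peak1974, at 248488 bp, with 16, 8 and 8. Their Eomesa folds were 42.3 and 6.06 and their Smad2 folds 4.89 and 1.42. Input was higher at the pair inside, and both folds were highest at Eomesa_peak133, where it was lowest.

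Isolated peaks of at least 100 bp with the most Smad2 over input were not the tallest in Eomesa. Eomesa_peak4926 (chr5:52657135-52657382) had 13 tags of Eomesa, 48 of Smad2 and 6 of input, with a Smad2 fold of 10.6 and an Eomesa fold of 9.62. Its Smad2 height was the highest of all isolated peaks. Eomesa_peak3965 (chr25:9727898-9728092) had 8, 6 and 1 tags and a Smad2 fold of 7.56, and Eomesa_peak3738 (chr23:45587452-45587597) had 7, 4 and 1 tags and a fold of 7.38. In the last pair the fold rests on 1 tag of input.

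At the other end Eomesa_peak5297 (chr6:55364365-55364490) had 24 tags of Eomesa, 1 of Smad2 and 16 of input, and a Smad2 fold of 0.0621. Eomesa_peak1175 (chr13:50830515-50830627) had 12, 0 and 2 tags and a fold of 0.136. Eomesa_peak5660 (chr7:77214012-77214369) had 54, 3 and 13 tags and a fold of 0.187. This last is among the tall isolated peaks, but its surroundings held 3.05 times the genome-wide mean of Eomesa and 2.66 times that of input, and another Eomesa value of 78 tags lay within 250 kb. Whether that background has a part in its height was not tested.

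One isolated peak belongs to the regions that the study examined by ChIP-qPCR, a measurement of single regions by PCR after ChIP. Not every region that the study tested for Eomesa was robustly enriched over control, and its result for this peak was not read here. Eomesa_peak5571 (chr7:55568816-55569421, 605 bp) had 24 tags of Eomesa, 4 of Smad2 and 8 of input. Its Eomesa fold was 16.7 and its Smad2 fold 0.833, and its nearest interval lay 414 kb away. The medians of isolated peaks of 500 bp or more were 12.7 and 1.28.

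Isolation refers to the lists, and the Eomesa track held more signal than the list round most members. Within 250 kb on each side, leaving out the 200 bp next to the interval, 84 isolated peaks (17.1%, 95% Wilson interval 14.0 to 20.7) stood strictly above every other Eomesa value. The share over all Eomesa peaks was 11.0%. The windows of other peaks contain called neighbours and those of isolated peaks contain none, so the shares are not on equal terms. The remaining 408 had at least 1 position in the flanks that was as tall, and none of those positions was in the list.

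The 84 peaks that topped their surroundings were wide, with medians of 32 tags in height, 402 bp in width and 17.4 in Eomesa fold. Among the 408 others the median height was 13 tags, and the highest Eomesa value in their flanks had a median of 29 tags. At that position the input track held a median of 9 tags, with a range of 0 to 176. Counting separate uncalled stretches at least as tall as the peak, and more than 200 bp apart, gave a median of 8 per isolated peak and 9 over all Eomesa peaks. At 123 members there was at most 1 such stretch and at 125 more than 20. The quartiles of this count were 1.75 and 21 at isolated peaks and 2 and 24 over all Eomesa peaks. Being taller than the flanks went with width. It held for 1 of 63 members under 100 bp and 14 of 175 from 100 to under 250 bp. From 250 to under 500 bp it held for 40 of 198, and at 500 bp or more for 29 of 56. The matching counts at other Eomesa peaks were not made. Height went with width there too, with a rho of 0.68, so nothing particular to isolated peaks can be read from these counts.

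**Figure D4:**
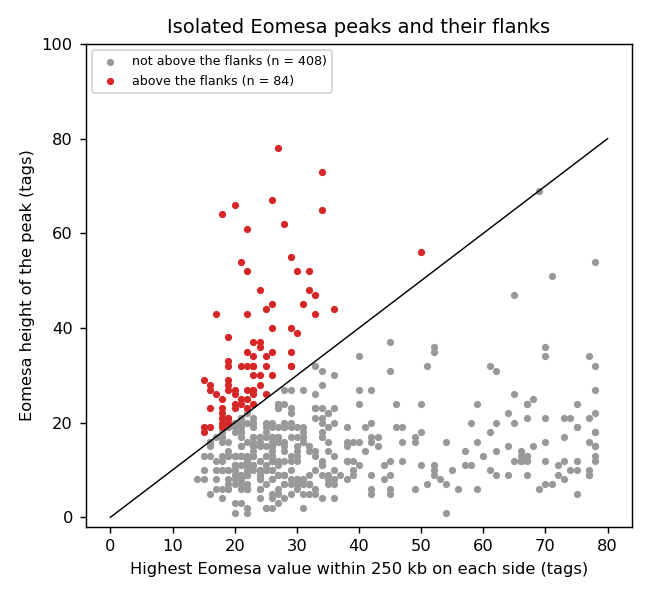
Eomesa height of each of the 492 isolated Eomesa peaks (y axis, tags) against the highest Eomesa value within 250 kb on each side (x axis, tags), with the line of equal values. The flank values leave out the peak and the 200 bp next to it. The 84 red points lie above the line, among them 7 of the tallest 8, and the 408 grey points lie on or below it.

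The flanks of isolated peaks hold no called interval by the rule, so lower Eomesa and Smad2 signal in them is in part fixed by it. In the 250 kb on each side the median multiple was 0.885 for Eomesa, 0.982 for Smad2 and 0.980 for input, beside 1.01, 1.06 and 1.03 over all Eomesa peaks. The share of flanking bases with any input signal depends on sequencing depth as well as on where reads could be placed. It had a median of 55.9% (range 13.3 to 80) at isolated peaks and 57.6% over all. It was 53.5% at members beyond 500 kb. The flanks of 24 isolated peaks (4.88%) were covered at under 40%, against 1.95% of all Eomesa peaks. Of these 24, 16 lay on chromosome 4, and the matching count over all Eomesa peaks was not made. The part of read placement in the isolation of these members was not tested.

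Some isolated peaks followed each other along a chromosome. In the order of the Eomesa list they formed 349 runs of consecutive isolated peaks, of which 256 were single. The longest run had 7 members and spanned 2987 kb of chromosome 14, from Eomesa_peak1384 to Eomesa_peak1390. Its Eomesa heights were, in order along the chromosome, 26, 9, 7, 17, 52, 34 and 21 tags. The Smad2 heights were 10, 8, 5, 3, 17, 6 and 14 tags, and those of input 11, 7, 10, 5, 14, 13 and 8 tags. Eomesa_peak1388 and Eomesa_peak1389, the tallest of the run, stood above all other Eomesa values within 250 kb, and Eomesa_peak1386 had 19 uncalled stretches as tall.

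A run of 5 on chromosome 5, over 3797 kb, held the most remote isolated peak and one of the tallest. From Eomesa_peak4721 to Eomesa_peak4725 the Eomesa heights were 16, 19, 17, 10 and 62 tags, the Smad2 heights 8, 3, 7, 6 and 4, and the input heights 7, 10, 8, 3 and 10. A run of 6 on chromosome 4, from Eomesa_peak4649 to Eomesa_peak4654, spanned 3600 kb with Eomesa heights of 32, 24, 12, 19, 21 and 20 tags and Smad2 heights of 7, 8, 2, 2, 2 and 4. Input signal was found on between 15.3% and 27.3% of the bases round its members, far below the 55.9% usual for isolated peaks.

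All 25 chromosomes had isolated peaks, from 8 to 30 with a median of 20. Chromosome 21 had the lowest share, with 8 of 236 Eomesa peaks (3.39%, 95% Wilson interval 1.73 to 6.55), followed by chromosome 3 with 15 of 341 (4.40%). Chromosome 24 had the highest, with 24 of 182 (13.2%, 9.02 to 18.9), followed by chromosomes 22 with 11.5% and 25 with 11.1%. Chromosome 4, where input covered 42.1% of the bases, had 9.23%. These are the extremes of 25 chromosomes and were picked for that. Chromosomes 21 and 3 also had the densest Eomesa peaks, 5.30 and 5.39 per Mb, beside 4.14 on chromosome 24. The next densest, chromosomes 19, 10 and 8, had low shares too, 5.08%, 6.01% and 5.78%. Chromosomes 16, 12 and 14 were the least dense, with 3.90, 4.10 and 4.13 per Mb. Their shares were above the 7.92% of all Eomesa peaks, and below the 13.2% of chromosome 24. Shares also differed at like densities, as on chromosomes 7 and 25, with 4.48 and 4.44 per Mb and shares of 5.49% and 11.1%. The part of peak density in these shares was not tested.

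**Figure D5:**
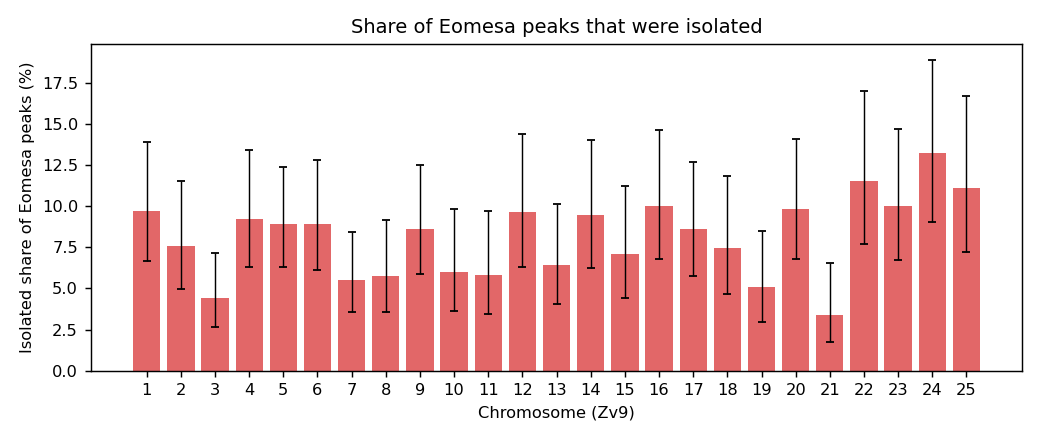
Share of the Eomesa peaks of each chromosome that were isolated (bars, in percent), with 95% Wilson intervals. The shares run from 3.39% on chromosome 21 to 13.2% on chromosome 24.

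Most isolated peaks whose annotation could be read had no gene start close by in the study's list. A gene start within 10 kb was given for 63 of 163 readable isolated peaks (38.7%, 95% Wilson interval 31.5 to 46.3) and for 791 of 1835 readable others (43.1%). At 14 of the 63 there was more than 1 gene. The 63 peaks carried 80 gene names, of which 59 matched a symbol in current RefSeq naming. None of 52 names of Nodal pathway and mesendoderm genes stood at a readable isolated peak, while 17 stood at readable others, among them gsc, lft2, foxh1 and wnt8a. With 163 peaks beside 1835, and with 329 isolated peaks whose annotation was not read, nothing particular to isolated peaks can be read from these counts.

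Examples of isolated peaks with a listed gene are given next for 8 peaks. They were picked out after their values had been seen, so no theme can be read from them. Eomesa_peak92, with 52 tags of Eomesa, 10 of Smad2 and 5 of input, lay near pax5, which encodes a paired-box factor of the midbrain-hindbrain boundary. Eomesa_peak143, with 47, 12 and 11 tags, lay near a copy of KCTD15, an inhibitor of neural crest formation. Eomesa_peak107, with 43, 6 and 10 tags, lay near sfrp2, a secreted modulator of Wnt signalling, and arfip1. Their Eomesa folds ran from 18.3 to 71.5, and only at Eomesa_peak107 was Smad2 below input, with a fold of 0.911.

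Eomesa_peak93, near ldb2b, a cofactor of LIM-domain proteins, had 32 tags of Eomesa, 8 of Smad2 and 11 of input. Eomesa_peak181, near the homeobox genes hmx1 and hmx4, had 24, 10 and 13 tags. Eomesa_peak1048, near neurog3, a basic helix-loop-helix factor, and pdlim1, had 19, 12 and 13 tags and an Eomesa fold of 4.69, close to the limit of 4. Eomesa_peak92 and Eomesa_peak93 follow each other on chromosome 1, and both carry a Foxh1 core shown above.

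Eomesa_peak270, near pnx, a homeobox gene of posterior neurons, had 19 tags of Eomesa, 7 of Smad2 and 9 of input. Eomesa_peak1894, near ctbp2, which encodes a transcriptional corepressor, had 10, 13 and 5 tags and Smad2 and Eomesa folds of 4.39 and 10.5. A gene within 10 kb of a peak is a neighbour, and no expression was measured in the samples used here.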

How the data were processed

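The authors aligned reads by Bowtie to Zv9, allowed each read at most 2 positions, called peaks with MACS against paired input, and kept peaks found in both reactions. The deposited lists give each interval and its width in bp, with no score. The deposited tracks give signal as the MACS pileup of tags every 5 bp, not scaled to depth. Whether a track holds both reactions, and which factor the input was paired with, is not given in the sources used here. Samples were grouped by their titles.

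Distances, heights, mean signals and folds were computed with Python 3.11.15, numpy 2.4.6 and pandas 2.3.3, and the Wilson, Poisson and order-statistics intervals, each at 95%, with scipy 1.17.1. The computation was checked on simulated intervals. Coordinates are printed as deposited, and 11 Eomesa intervals start and stop at the same base, so intervals were read as including both ends. Tags per track were estimated by dividing the summed signal by the tag length. The highest flank values and the uncalled stretches leave out the 200 bp next to each interval. No statistical test was made, because each group had 1 track. Wilson and order-statistics intervals treat peaks as independent and hold no error between replicates.

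The members, lists and thresholds were chosen with earlier results of these data known. Members named were the 8 tallest, the 5 most remote, the 3 highest and 3 lowest in Smad2 fold of at least 100 bp wide, the nearest 2 on each side of the limit, and any taken to ChIP-qPCR. Peaks with Foxh1 letters or developmental genes were named beyond this rule. Foxh1 letters and gene names come from the first 1998 entries of the study's peak list, which were readable here. These entries lie on chromosomes 1 and 10 to 16 and part of 17, so Foxh1 and gene shares do not cover the other chromosomes. Alternatives covered the distance limit and how it is measured, pseudocount, window, narrow intervals, sequence ends, flank size and comparison set. The result of a further gene list is not reported here.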

Additional observations from a re-analysis of the deposited data

How the results depend on the processing

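Of 36 alternatives over 7 results, 26 left the value within the limits set for it, and 10 moved it, in 1 case past 0. Requiring more than 100 kb gave 1635 isolated Eomesa peaks in place of 492, and more than 500 kb gave 84. Beyond 500 kb the difference in log2(height + 1) from other Eomesa peaks changed sign, to -0.10 in place of 0.09, and it was 0.0 with more than 100 kb. Beyond 500 kb the Smad2 fold was 1.17 in place of 1.25, the width difference was -35 bp in place of -16 bp, and input covered 53.5% of the flanks in place of 55.9%. A pseudocount of 0.5 gave an Eomesa fold of 7.80 and a 1 kb window for input 12.6, in place of 9.08. A larger pseudocount lowers any fold above 1 by its arithmetic, and the cause of the other shifts was not tested. The other Eomesa peaks moved alike, to 7.57 and 12.4. Flanks of 100 kb gave an input coverage of 56.5%, and 136 members in place of 84 that topped their surroundings. Measuring from centres, using only Eomesa intervals, leaving out narrow intervals, joining intervals within 1 kb and leaving out sequence ends gave 492, 577, 532, 549 and 483 members. Reading heights within 200 bp of the interval, chosen after seeing the data, removed the height difference (0.0) and gave 85 members above their surroundings.

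No paired analysis was possible because neither intervals nor signal files are split by reaction, so no replicate was left out either. Input heights of a few tags limit the folds of narrow intervals. Whether Eomesa heights are capped at 78, the highest value of the track, is not given in the sources used here.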

Other observations

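Some isolated Eomesa intervals held very little signal. The Eomesa height was under 5 tags at 17 of them (3.46%), against 4.70% of all Eomesa peaks. Height was read inside the interval only, so a summit outside a narrow interval would be missed. No Smad2 tag fell in 6 isolated peaks and no input tag in 3, and neither count was made over all Eomesa peaks. The 63 isolated peaks under 100 bp (12.8%, against 11.8% of all Eomesa peaks) had a median of 45 uncalled Eomesa stretches at least as tall within 250 kb. The 56 of 500 bp or more had a median of 0, and so had the 614 other Eomesa peaks of that width.

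At 40 isolated peaks (8.13%) the input multiple was at least 5, against 9.73% of all Eomesa peaks. Eomesa_peak2588 on chromosome 19 had the highest, 14.9, with heights of 56 tags of Eomesa, 13 of Smad2 and 46 of input. Its flanks held 2.35 times the genome-wide mean of Eomesa and 2.39 times that of input. The tallest input signal in an isolated peak, 53 tags, was at Eomesa_peak1406, one of those whose Foxh1 letters are shown, with an Eomesa fold of 4.35 and a Smad2 fold of 0.757. The part of input in these heights was not tested.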
